A study of Mus musculus with 15 samples.

Results

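The genes examined were 10 sensors, adaptors and restraining enzymes of cytosolic nucleic acid sensing. By name alone, the rule takes Tmem173 (Sting), Tbk1, Irf3, Aim2, Zbp1, Trex1, Ddx58 (Rig-I), Ifih1 (Mda5), Mavs and Adar. Each symbol matched 1 of the 45706 genes in the count table, 9 of the 10 had counts in every library and passed the filter on low counts, and the remaining gene, Trex1, was listed at 0 throughout. RNA sequencing of bone marrow cells that lacked mature lineage markers (lin-) gave 15 libraries from secondary recipients, mice that received stem and progenitor cells passed on from a first transplanted host. The 4 groups differ in the genotype of the transplanted cells. WT (n = 3) carries neither deletion, and Puma-/- (n = 4) lacks the pro-apoptotic BH3-only protein PUMA. G3 mTerc-/-Puma+/+ (n = 4) lacks the RNA component of telomerase after generation 3 (G3) of breeding without it, so that telomeres are shortened, and keeps Puma. The fourth group, labelled G3 mTerc-/-Puma-/- (n = 4), is described as lacking both. By the study's methods, every host was an irradiated CD45.1+ mouse with its own mTerc and Puma genes. For RNA sequencing, the methods name lineage-negative cells and do not mention a gate on donor origin. Residual host cells may therefore be present in all groups. No other agent is named, and the labels give no strain, sex or age and no time after transplantation. They also do not say whether each library is a separate recipient, so p-values measure the spread between libraries.

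Cells carry sensors for DNA and RNA that appear in the cytosol during infection or after damage to chromosomes and mitochondria. STING, encoded by Tmem173, is activated by the cyclic dinucleotide that cGAS makes on DNA, and it engages the kinase TBK1, which phosphorylates the transcription factor IRF3 to start type I interferon transcription. RIG-I and MDA5 (Ddx58 and Ifih1) detect unusual RNA and signal through the mitochondrial adaptor MAVS to the same kinase. AIM2 assembles an inflammasome on DNA, ZBP1 binds left-handed nucleic acid and can start necroptosis, and TREX1 and ADAR1 restrain the system by digesting DNA and by editing RNA. Several of these genes, Ddx58, Ifih1, Zbp1 and Adar among them, are themselves induced by interferon, whereas Irf3, Tbk1 and Mavs are known for steady transcription.

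Library totals ranged from 102790519 to 158367059 counts. Values are CPM (counts scaled to library size after TMM normalization) or log2 fold changes from edgeR's quasi-likelihood fit, and they use 14 libraries unless 15 are named, since the study's heatmaps leave out replicate 2 of the libraries with a G3 mTerc-/-Puma-/- label. That library stood apart, with 46.5% of the 18983 tested genes outside the range of the other 14 libraries, against 4.62% to 28.3% for each of the others. Its monocyte markers summed to 284 CPM (1983 to 3125 in the others) and its erythroid markers to 976 CPM (25.4 to 156). Bbc3, the gene of PUMA, checks the labels, and its level of 13.5 to 17.0 CPM in the libraries with a G3 mTerc-/-Puma-/- label lay within the 9.67 to 23.5 CPM of WT and above the 5.02 to 6.80 CPM of Puma-/-, so Bbc3 goes against that label. Terc had 7 to 17 counts in WT, 4 to 11 in Puma-/- and 0 or 1 in every library with an mTerc-/- label. Granulocyte-monocyte progenitor markers (Mpo, Elane, Prtn3, Ctsg) summed to at least 12460 CPM in every library, and all 6 stem and progenitor markers were detected, as the lin- label asks. Markers of mature cells, which that label does not ask for, were present too. The 6 T and NK cell markers were all detected and summed to 316 to 510 CPM in 14 libraries. The stem and progenitor markers summed to 351 to 603 CPM in these libraries, and the 6 late neutrophil markers to 336 to 3434 CPM.

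Promoter sequence was examined first, because a list of these genes mixes interferon-induced and steadily transcribed members. The interferon-stimulated response element was searched as GAAA, 2 bases of any kind and GAAA on both strands of the RefSeq windows of GRCm38.p6, which run from 250 bases before to 50 bases after a start. Of the 10 members, 8 had a window that was used, with 11 windows in all, while Zbp1 had no entry and Tmem173 was not used. The match was found in 2 of these 8 members, Ddx58 and Ifih1, and in 3.98% of 26994 genes with such windows (3.43% of 32817 windows). In Ddx58 it begins 2 bases after the start and lies on the opposite strand, and in Ifih1 it begins 32 bases after the start on the gene's own strand. Both stretches are shown with the match in capitals, beside that of Irf3, a steady member whose window holds no match, all written 5′ to 3′ on the strand of the gene. The Ddx58 stretch is chr4:40239796-40240075 (minus strand), that of Ifih1 is chr2:62646206-62646235 (minus strand), and that of Irf3 is chr7:44997398-44997647 (plus strand).
Ddx58: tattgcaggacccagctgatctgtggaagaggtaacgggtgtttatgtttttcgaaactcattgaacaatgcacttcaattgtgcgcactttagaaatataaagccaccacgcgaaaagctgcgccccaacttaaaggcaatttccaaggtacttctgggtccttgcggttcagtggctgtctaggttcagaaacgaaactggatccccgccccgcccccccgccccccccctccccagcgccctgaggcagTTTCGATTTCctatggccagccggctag
Ifih1: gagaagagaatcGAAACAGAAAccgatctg
Irf3: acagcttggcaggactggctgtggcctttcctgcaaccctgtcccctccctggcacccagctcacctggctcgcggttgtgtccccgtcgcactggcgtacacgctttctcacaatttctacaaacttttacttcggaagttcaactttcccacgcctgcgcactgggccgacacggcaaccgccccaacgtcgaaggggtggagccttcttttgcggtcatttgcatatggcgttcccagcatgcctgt
The second motif searched, the gamma-activated site (TTC, 3 bases of any kind and GAA on both strands), was present in 8.29% of all windows and, among the windows of members used here, in 1 of Adar. These letters read the same on both strands, so the Adar match is 1 place. A match is a string of letters and not a measured binding site. For the interferon-stimulated response element, only a gap of 2 bases was searched. The letters GAAACGAAA, with a gap of 1 base, also stand in the Ddx58 stretch before the start and in 1 Adar window. Their share over all genes was not counted.

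Trex1 (ENSMUSG00000049734), the main exonuclease that removes cytosolic DNA, had 0 counts in all 15 libraries. It lies on chromosome 9 from 109057933 to 109059734 (minus strand, GRCm38), and all 1147 of its exonic bases (100%) also belong to exons of Atrip on the same strand in the GENCODE annotation used here. STAR's count per gene takes a read only where it touches 1 gene, so under such an annotation no read of Trex1 is counted for it, and the 0 says nothing about its expression. Atrip had 61 to 155 counts per library. Where reads can be assigned, a count of 0 allows up to 3 counts, or 0.0189 to 0.0292 CPM across the libraries. That limit does not hold for Trex1 under such an annotation. No other member had all its exonic bases shared with another gene. Of the exonic bases of Adar, 16.8% are shared with Chrnb2, and of those of Irf3, 2.56% with Bcl2l12, both on the opposite strand. The strand setting of the counting is not given in the sources used here.

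Levels were compared between genes as CPM per 1000 exonic bases, averaged over 14 libraries. Tmem173 was the most abundant member at 50.1 ± 2.35 (SD, n = 14 libraries), followed by Irf3 at 28.4 ± 1.60. Aim2 at 15.5 ± 0.839 and Tbk1 at 14.3 ± 0.720 were neighbours whose ranges over libraries overlapped. Mavs stood at 10.6 ± 0.722 and Adar at 9.30 ± 1.14, again with overlapping ranges. The RNA sensors and ZBP1 formed the lower end, with Zbp1 at 3.94 ± 1.25, Ddx58 at 2.79 ± 0.534 and Ifih1 at 1.88 ± 0.211. The adaptors and kinase that several sensors share were thus more abundant per length than the RNA sensors in every library. Cgas, the DNA sensor upstream of STING and not one of the 10 genes, stood at 8.87 to 9.72 CPM per 1000 bases as a genotype mean.

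**Figure D1:**
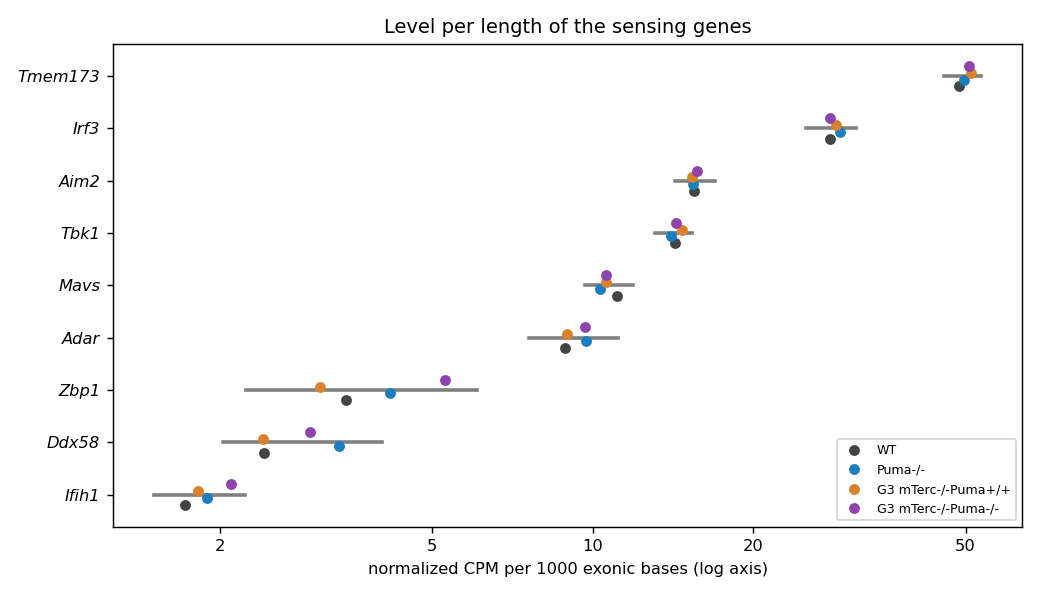
Mean level of 9 sensing genes in each genotype as CPM per 1000 exonic bases on a log axis (coloured points), with grey bars from the lowest to the highest of 14 libraries. Tmem173 is highest at 50.1 and Ifih1 lowest at 1.88, and the genotype means of Zbp1, Ddx58 and Ifih1 are spread more widely than those of the other members.

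The STING arm was even across genotypes. Tmem173 (ENSMUSG00000024349, chromosome 18 from 35733679 to 35740554, minus strand) was measured at 132, 135 and 134 CPM in WT, 143, 137, 132 and 132 in Puma-/-, 142, 146, 125 and 147 in G3 mTerc-/-Puma+/+, and 140.2, 135 and 143 in the libraries with a G3 mTerc-/-Puma-/- label. These values overlapped between every pair of genotypes, and the highest library exceeded the lowest by 1.17-fold. Tbk1 (ENSMUSG00000020115, chromosome 10 from 121546455 to 121586787, minus strand), the kinase, stood at 57.0, 53.8 and 56.5 CPM in WT, 54.9, 56.4, 51.1 and 56.8 in Puma-/-, 59.7, 58.2, 52.2 and 60.04 in G3 mTerc-/-Puma+/+, and 59.7, 55.0 and 53.1 in the libraries with a G3 mTerc-/-Puma-/- label. Irf3 (ENSMUSG00000003184, chromosome 7 from 44997648 to 45002848, plus strand), the transcription factor, stood at 95.4, 106 and 86.3 CPM in WT, 96.3, 98.3, 107 and 99.1 in Puma-/-, 95.6, 95.8, 101 and 101 in G3 mTerc-/-Puma+/+, and 91.8, 93.6 and 102 in the libraries with a G3 mTerc-/-Puma-/- label. Both genes also overlapped between all genotypes. Over the 6 pairs of genotypes, the widest 95% intervals of the log2 fold change reached from -0.15 to 0.21 for Tmem173, from -0.19 to 0.21 for Tbk1 and from -0.22 to 0.22 for Irf3. Each interval holds for 1 comparison in these 14 libraries, without adjustment over pairs or genes. Replicate 2 of the libraries with a G3 mTerc-/-Puma-/- label, with Tmem173 at 52.0 CPM, is not in them.

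Aim2 and Mavs were even across genotypes too, while Adar overlapped between all genotypes with a wider spread. Aim2 (ENSMUSG00000037860, chromosome 1 from 173350879 to 173466040, plus strand), the inflammasome sensor, stood at 55.9, 51.3 and 55.1 CPM in WT, 49.996, 55.5, 53.4 and 56.8 in Puma-/-, 54.5, 50.9, 51.9 and 57.8 in G3 mTerc-/-Puma+/+, and 55.2, 59.3 and 50.1 in the libraries with a G3 mTerc-/-Puma-/- label, with log2 fold changes of -0.01 to 0.03 over the 6 pairs. Mavs (ENSMUSG00000037523, chromosome 2 from 131234063 to 131248025, plus strand) stood at 38.2, 37.7 and 35.6 CPM in WT, 37.0, 35.9, 32.5 and 32.3 in Puma-/-, 38.3, 33.4, 34.9 and 35.2 in G3 mTerc-/-Puma+/+, and 39.7, 32.4 and 34.0 in the libraries with a G3 mTerc-/-Puma-/- label. Its 95% intervals stayed between -0.29 and 0.22. Adar (ENSMUSG00000027951, chromosome 3 from 89715022 to 89753446, plus strand), the RNA-editing enzyme, stood at 72.5, 71.6 and 72.1 CPM in WT, 85.5, 90.6, 61.5 and 77.7 in Puma-/-, 83.7, 63.9, 73.5 and 69.5 in G3 mTerc-/-Puma+/+, and 90.6, 66.7 and 77.6 in the libraries with a G3 mTerc-/-Puma-/- label. Adar varied more within genotypes than Aim2 or Mavs, with SDs of 8.33 to 12.7 CPM outside WT and 0.490 CPM in WT, and its 95% intervals reached from -0.38 to 0.42.

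**Figure D2:**
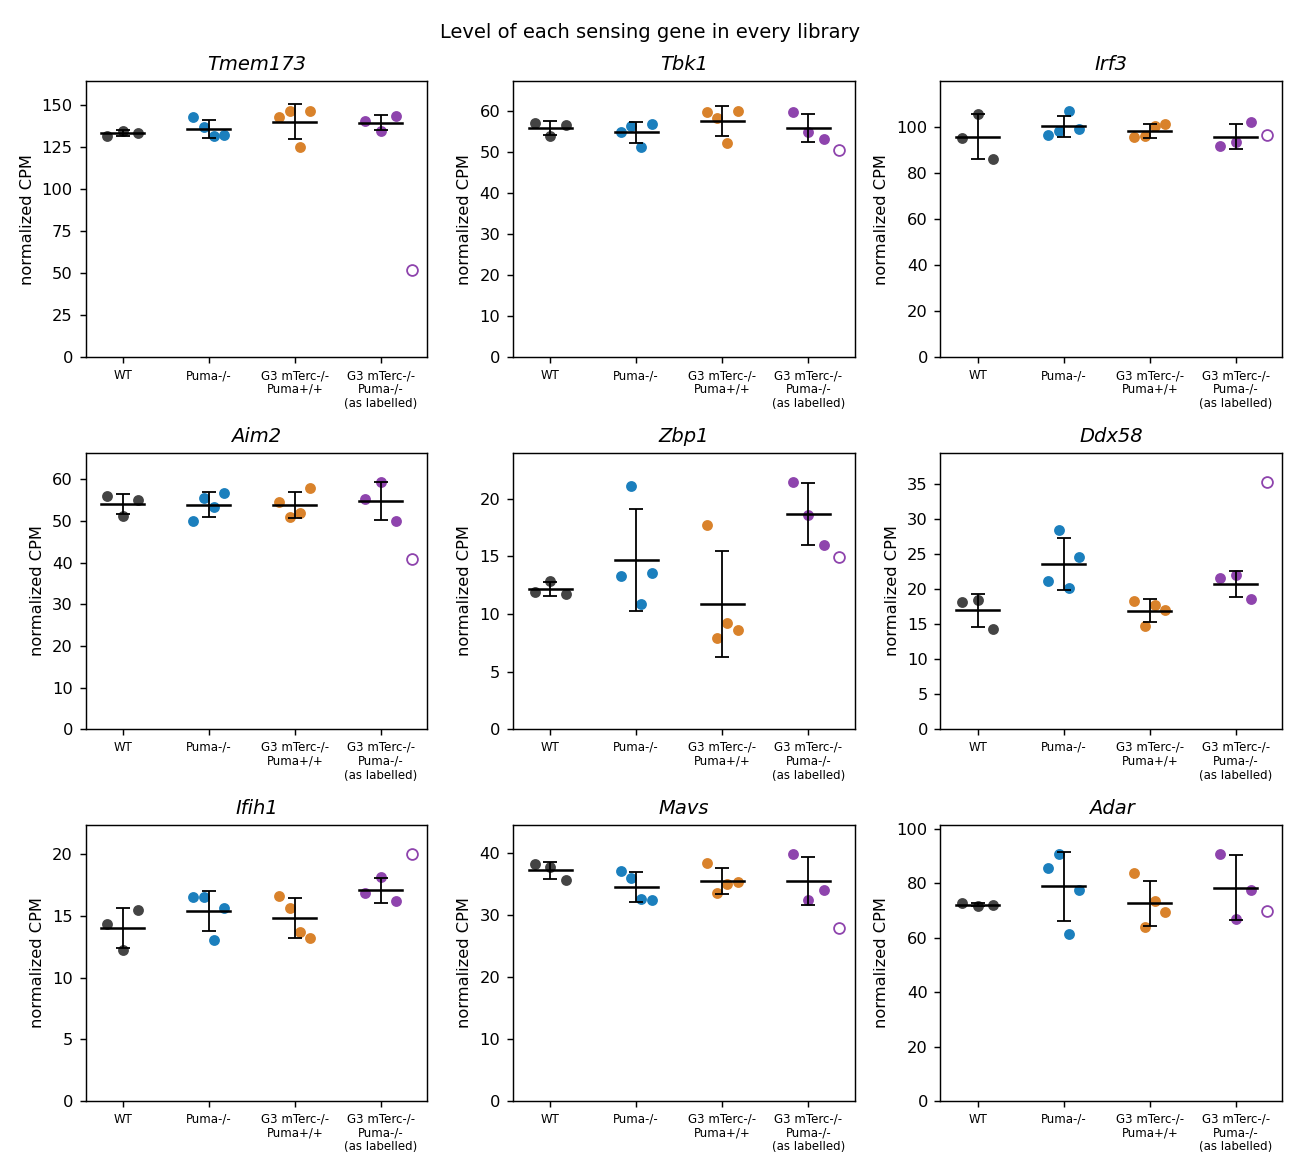
Normalized CPM of 9 sensing genes in each of 15 libraries, with the bar at the mean and whiskers of 1 SD for each genotype (n = 3, 4, 4 and 3). The open circle is replicate 2 of the libraries with a G3 mTerc-/-Puma-/- label, which is outside the means, and it is far below the rest for Tmem173 at 52.0 CPM and far above for Ddx58 at 35.3 CPM.

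Ddx58 was higher in Puma-/- than in WT and in G3 mTerc-/-Puma+/+, without overlap of the groups. The groups of these comparisons also did not overlap, in either direction, for 9.71% and 10.8% of all 18983 tested genes. Ddx58 (ENSMUSG00000040296, chromosome 4 from 40203773 to 40239828, minus strand) was measured at 18.2, 18.5 and 14.3 CPM in WT and at 21.2, 28.4, 20.1 and 24.6 CPM in Puma-/-. In G3 mTerc-/-Puma+/+ it stood at 18.3, 14.7, 17.8 and 17.0 CPM, and in the libraries with a G3 mTerc-/-Puma-/- label at 21.6, 22.1 and 18.6 CPM. All Puma-/- libraries lay above all WT and all G3 mTerc-/-Puma+/+ libraries, and the libraries with a G3 mTerc-/-Puma-/- label lay between them, above both WT and G3 mTerc-/-Puma+/+ and overlapping with Puma-/-. Those libraries did not overlap with WT for 8.52% of all genes, and with G3 mTerc-/-Puma+/+ for 5.55%. The log2 fold change of Puma-/- against WT was 0.47 (SE 0.137, edgeR adjusted p = 0.357, unadjusted p = 0.00412), and the exact permutation p (two-sided, 4 against 3 libraries) was 0.0571. That of G3 mTerc-/-Puma+/+ against Puma-/- was -0.48 (SE 0.126, edgeR adjusted p = 0.0846, unadjusted p = 0.00212), with an exact permutation p of 0.0286, the smallest that 4 against 4 libraries allow. For the libraries with a G3 mTerc-/-Puma-/- label against G3 mTerc-/-Puma+/+ it was 0.29 (SE 0.135, edgeR adjusted p = 0.792, unadjusted p = 0.0478), with an exact permutation p of 0.0286, also the smallest possible. None passed the adjusted threshold of 0.05 with edgeR, and these comparisons share libraries. DESeq2 called the second of them, with a log2 fold change of -0.47 and an adjusted p of 0.0119, but not with all 15 libraries (adjusted p = 0.186). Over all alternatives, the adjusted p of that comparison ranged from 0.0119 to 0.383. The libraries with a G3 mTerc-/-Puma-/- label against G3 mTerc-/-Puma+/+ value was 0.52 with all 15 libraries (edgeR adjusted p = 0.336, and 0.147 to 0.999 over all alternatives).

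Ddx58 differences coincided with other differences between the groups. The Y-linked gene Ddx3y was at most 0.0446 CPM in Puma-/-, 21.2 to 43.0 CPM in WT and 42.6 to 48.0 CPM in G3 mTerc-/-Puma+/+. Sex and genotype thus cannot be told apart in either comparison with Puma-/-. In the libraries with a G3 mTerc-/-Puma-/- label Ddx3y was 2.87, 45.9 and 4.25 CPM. Sex is thus also unbalanced in their comparisons with G3 mTerc-/-Puma+/+, with WT and with Puma-/-, for every gene. Xist, the female marker, was 417, 211 and 1.72 CPM in WT and 464 to 865 CPM in Puma-/-. It was 0.176 to 88.6 CPM in G3 mTerc-/-Puma+/+ and 660, 0.386 and 443 CPM with the G3 mTerc-/-Puma-/- label. Libraries with both RNAs may mix male and female cells. With Xist as a covariate, the log2 fold change of G3 mTerc-/-Puma+/+ against Puma-/- was -0.39 (edgeR adjusted p = 0.383), and that of Puma-/- against WT was 0.42 (edgeR adjusted p = 0.583). All 4 megakaryocyte markers were detected in each group, with sums of 283 to 458 CPM in Puma-/-, 120 to 256 in WT, 142 to 191 in G3 mTerc-/-Puma+/+ and 111 to 165 in the libraries with a G3 mTerc-/-Puma-/- label, and their correlation with Ddx58 over 14 libraries (log2 scale) was 0.529. The 7 macrophage markers, with a higher correlation of 0.668, were all detected and summed to 119.8 to 184 CPM in Puma-/-, 116 to 120.4 in WT, 59.1 to 149.6 in G3 mTerc-/-Puma+/+ and 138 to 234 in the libraries with a G3 mTerc-/-Puma-/- label. The 7 B lineage markers, with a correlation of 0.438, were all detected and summed to 62.2 to 72.0, 57.3 to 63.2, 37.3 to 50.2 and 60.1 to 120.9 CPM in the same order. Plasmacytoid dendritic cell markers, given beside Zbp1, correlated at 0.476. These points share libraries, and the part of these cells in the Ddx58 values was not tested. In bulk RNA, fewer cells of a type and less RNA per cell cannot be told apart.

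Ifih1 did not pass the adjusted test in any comparison, and its values in the libraries with a G3 mTerc-/-Puma-/- label lay above those of WT. Ifih1 (ENSMUSG00000026896, chromosome 2 from 62595798 to 62646255, minus strand) was measured at 14.3, 12.3 and 15.5 CPM in WT, at 16.5, 16.5, 13.1 and 15.6 CPM in Puma-/-, and at 16.6, 15.7, 13.7 and 13.2 CPM in G3 mTerc-/-Puma+/+. In the libraries with a G3 mTerc-/-Puma-/- label it stood at 16.9, 18.2 and 16.2 CPM, above all WT libraries and overlapping with the other genotypes. The groups of that comparison with WT did not overlap for 8.52% of all tested genes. The log2 fold change against WT was 0.29 (SE 0.129, edgeR adjusted p = 0.889, unadjusted p = 0.0442), and the exact permutation p of 0.1 is the smallest that 3 against 3 libraries allow. Replicate 2, at 20.01 CPM, was higher still, and with it the log2 fold change was 0.34 (edgeR adjusted p = 0.432, and 0.211 to 1 over all alternatives). In the libraries with a G3 mTerc-/-Puma-/- label, plasmacytoid dendritic cell and macrophage marker sums (65.5 to 88.0 and 138 to 234 CPM) also lay above every WT library (27.6 to 54.4 and 116 to 120.4 CPM), with correlations with Ifih1 of 0.485 and 0.502 over 14 libraries. The part of these cells in the Ifih1 values was not tested. Sex is unbalanced as well in the comparison with WT, as given beside Ddx58.

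Zbp1 had the widest spread of the members. Zbp1 (ENSMUSG00000027514, chromosome 2 from 173206612 to 173218923, minus strand) was measured at 11.9, 12.9 and 11.8 CPM in WT and at 13.3, 21.1, 10.9 and 13.6 CPM in Puma-/-. In G3 mTerc-/-Puma+/+ it stood at 17.7, 7.90, 9.25 and 8.63 CPM, and in the libraries with a G3 mTerc-/-Puma-/- label at 21.4, 18.6 and 16.0 CPM. Of the G3 mTerc-/-Puma+/+ libraries, 3 were below every other library, whereas replicate 1 was above all WT libraries and within the libraries with a G3 mTerc-/-Puma-/- label. The libraries with a G3 mTerc-/-Puma-/- label lay above all WT libraries, with an exact permutation p of 0.1, the smallest possible there. These groups did not overlap for 8.52% of all tested genes. Compared with G3 mTerc-/-Puma+/+, these libraries had a log2 fold change of 0.78 (SE 0.266, edgeR adjusted p = 0.508, unadjusted p = 0.0112), and the exact permutation p was 0.0857. Replicate 1 of G3 mTerc-/-Puma+/+ decided the call, since without it the log2 fold change was 1.13 and the edgeR adjusted p was 0.0498, the lowest of its alternatives, of which the highest was 0.964. Plasmacytoid dendritic cell markers (5 of 5 detected in each group) summed to 65.5 to 88.0 CPM in the libraries with a G3 mTerc-/-Puma-/- label, 27.6 to 54.4 in WT, 37.5 to 55.7 in Puma-/- and 13.5 to 36.1 in G3 mTerc-/-Puma+/+, and macrophage markers (7 of 7 detected) summed to 138 to 234, 116 to 120.4, 119.8 to 184 and 59.1 to 149.6 CPM in the same order. Over 14 libraries (log2 scale), Zbp1 correlated at 0.724 with the plasmacytoid dendritic cell sum and at 0.729 with the macrophage sum. The part of these cells in the Zbp1 values was not tested. Sex is unbalanced as well in the comparisons with G3 mTerc-/-Puma+/+ and with WT, as given beside Ddx58. In replicate 2 of the libraries with a G3 mTerc-/-Puma-/- label, Zbp1 stood at 14.96 CPM, while plasmacytoid dendritic cell markers were the lowest of the 15 libraries at 7.15 CPM and macrophage markers the highest at 289 CPM.

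Counted over the 9 measured members, edgeR called 0 members in each of the 6 pairs of genotypes, in the interaction of mTerc and Puma and in the test of any difference among the 4 genotypes. Among all 18983 tested genes, 0.079% were called for Puma-/- against WT, 0.0369% for G3 mTerc-/-Puma+/+ against WT and 0.0632% for the libraries with a G3 mTerc-/-Puma-/- label against WT. The shares were 0.801% for G3 mTerc-/-Puma+/+ against Puma-/-, 0.306% for the libraries with a G3 mTerc-/-Puma-/- label against Puma-/- and 0.0738% for the libraries with a G3 mTerc-/-Puma-/- label against G3 mTerc-/-Puma+/+, with 0.0527% for the interaction and 0.448% for any difference. Against shares this low, 0 calls among 9 genes is no result about these genes. Limma-voom also called 0 members in each test. DESeq2 called Ddx58 in 2 of these 8 tests, G3 mTerc-/-Puma+/+ against Puma-/- and any difference, where it called 5.29% and 4.4% of the same genes.

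At an unadjusted edgeR p under 0.05, 1 member passed for Puma-/- against WT (10.1% of all genes), 0 for G3 mTerc-/-Puma+/+ against WT (3.86%), 1 for the libraries with a G3 mTerc-/-Puma-/- label against WT (5.45%) and 1 for G3 mTerc-/-Puma+/+ against Puma-/- (17.1%). For the libraries with a G3 mTerc-/-Puma-/- label, 0 members passed against Puma-/- (8.42%) and 2, Zbp1 and Ddx58, against G3 mTerc-/-Puma+/+ (6.22%). The interaction gave 0 (4.93%) and any difference gave 1, Ddx58 (11.4%). Groups did not overlap for 1 member in Puma-/- against WT (9.71% of all genes), for 0 in G3 mTerc-/-Puma+/+ against WT (4.07%) and for 1 in G3 mTerc-/-Puma+/+ against Puma-/- (10.8%). For the libraries with a G3 mTerc-/-Puma-/- label, this held for 3 members against WT (8.52%), namely Zbp1, Ddx58 and Ifih1, for 0 against Puma-/- (9.54%) and for 1 against G3 mTerc-/-Puma+/+ (5.55%). The median log2 fold change over the 9 members lay between -0.03 and 0.06 in the 6 pairs, beside -0.01 to 0.02 over all tested genes.

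**Figure D3:**
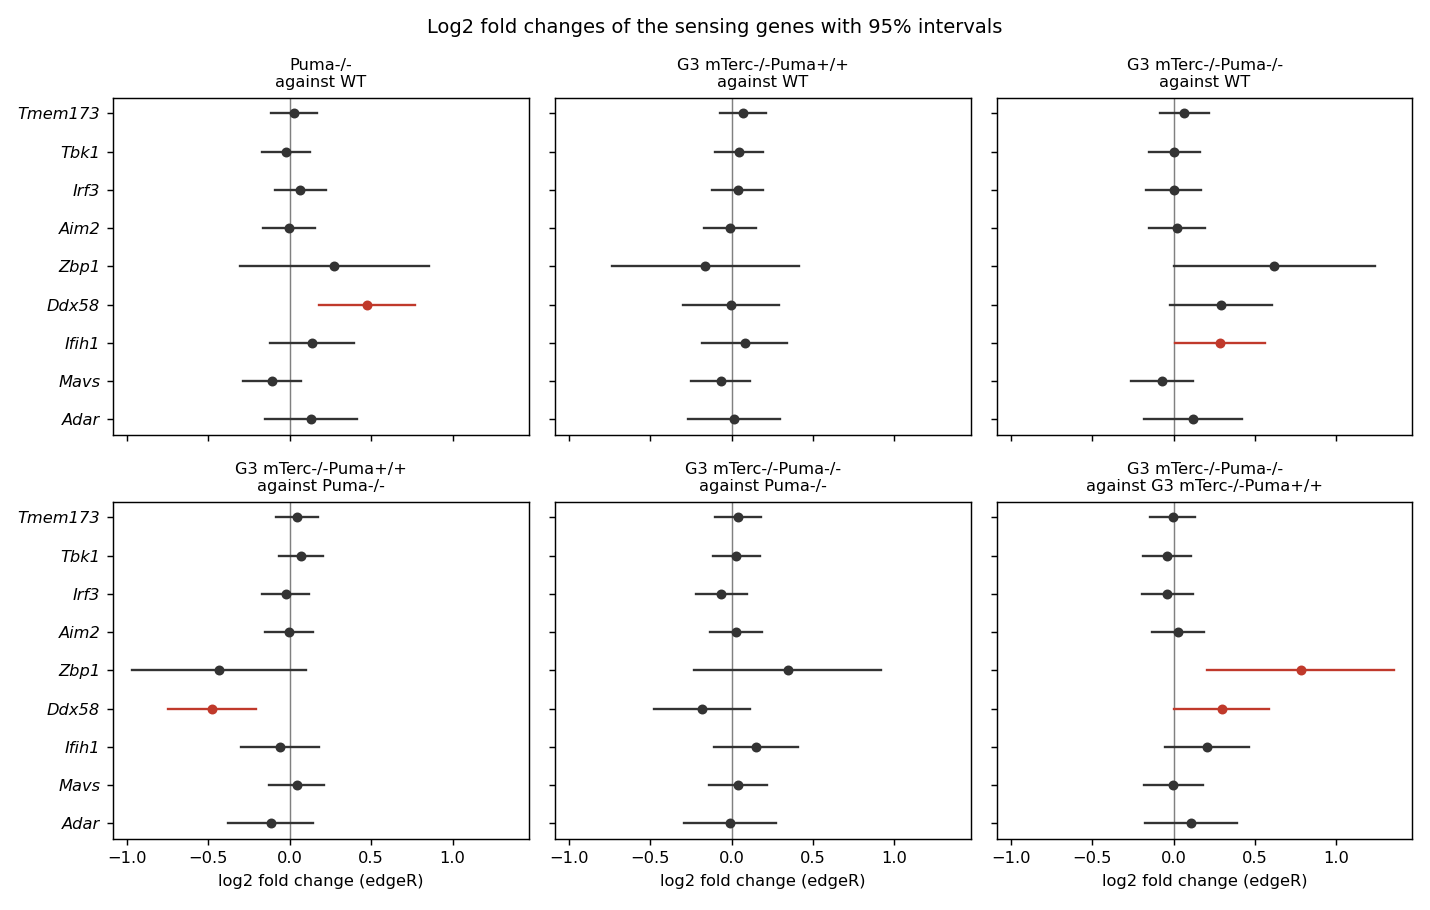
Log2 fold changes of 9 sensing genes from edgeR in the 6 pairs of genotypes, with 95% intervals from 14 libraries. Intervals in red have an unadjusted p under 0.05 (Ddx58 in 3 comparisons, Zbp1 and Ifih1 in 1 each), none passes after adjustment over 18983 genes, and the intervals of Tmem173, Tbk1, Irf3, Aim2 and Mavs all stay within -0.29 and 0.22.

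The rest of the pathway was read from a list of 47 further sensors, effectors, signalling proteins and nucleases, of which 47 were tested. EdgeR called 0 of them in all 8 tests. At an unadjusted p under 0.05, 2 of the 47 were higher and 1 lower in Puma-/- against WT, where 5.77% of all genes were higher and 4.38% lower. In G3 mTerc-/-Puma+/+ against WT, 1 was higher and 0 lower (1.59% and 2.28% of all genes), and in G3 mTerc-/-Puma+/+ against Puma-/-, 3 were higher and 6 lower (8.19% and 8.96%). The libraries with a G3 mTerc-/-Puma-/- label gave 6 higher and 0 lower against WT (3.71% and 1.74%), 7 higher and 1 lower against Puma-/- (3.51% and 4.9%) and 9 higher and 0 lower against G3 mTerc-/-Puma+/+ (4.37% and 1.84%). The interaction gave 3 higher and 2 lower (2.4% and 2.53%), and the test of any difference gave 13 (11.4%). The median log2 fold changes of the 47, in the order just given for the pairs, were -0.02, -0.00365, 0.00375, 0.06, 0.07 and 0.01, and that of the interaction was 0.09, beside -0.01 to 0.02 over all tested genes. Some of the genes of smallest p in a comparison are named here. Mlkl, the executor of necroptosis downstream of ZBP1, was at 0.42 in G3 mTerc-/-Puma+/+ against Puma-/- (SE 0.0923, edgeR adjusted p = 0.0524) and at -0.35 in Puma-/- against WT (SE 0.0991, edgeR adjusted p = 0.351). Tlr7, the endosomal sensor of single-stranded RNA that plasmacytoid dendritic cells carry, was at 1.46 in the libraries with a G3 mTerc-/-Puma-/- label against G3 mTerc-/-Puma+/+ (SE 0.298, edgeR adjusted p = 0.105). Tlr7 lies on chromosome X, and sex is unbalanced in that comparison. Oasl1, which blocks translation of Irf7, was at 0.96 in the same comparison (SE 0.209, edgeR adjusted p = 0.123), and Oas1a, a sensor that makes the activator of RNase L, was at 0.82 in the libraries with a G3 mTerc-/-Puma-/- label against WT (SE 0.189, edgeR adjusted p = 0.289). Irf7 was at -0.72 in G3 mTerc-/-Puma+/+ against Puma-/- (SE 0.215, edgeR adjusted p = 0.121). Cgas itself stood at 42.9, 34.7 and 40.4 CPM in WT and overlapped between all genotypes.

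Interferon genes, the output of the pathway, were close to the limit of detection. Ifnb1 had 0 to 5 counts per library, Ifna4 at most 1, Ifnl2 4 in 1 Puma-/- library and 0 in the others, and Ifnl3 0 throughout. The chemokine Cxcl10 stood at 1.93 to 6.27 CPM and Ccl5 at 21.7 to 169 CPM, with overlap between all genotypes.

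Interferon-stimulated genes were read from a list of 27 genes that holds no member, and edgeR called 0 of 27 in all 8 tests. At an unadjusted p under 0.05, 17 were higher and 0 lower in the libraries with a G3 mTerc-/-Puma-/- label against G3 mTerc-/-Puma+/+, 11 higher and 0 lower in the libraries with a G3 mTerc-/-Puma-/- label against WT, and 0 higher and 12 lower in G3 mTerc-/-Puma+/+ against Puma-/-. Their median log2 fold changes were 0.42, 0.42 and -0.31, beside -0.01, 9.83e-05 and -0.000489 over all tested genes. Of all tested genes, 4.37% were higher and 1.84% lower in the first comparison, 3.71% and 1.74% in the second, and 8.19% and 8.96% in the third. In Puma-/- against WT, 2 of the 27 were higher and 0 lower (median 0.20, 5.77% and 4.38% of all genes). In G3 mTerc-/-Puma+/+ against WT, 0 were higher and 0 lower (median -0.16, 1.59% and 2.28%). The libraries with a G3 mTerc-/-Puma-/- label gave 2 higher and 0 lower against Puma-/- (median 0.18, 3.51% and 4.9%). The interaction gave 3 higher and 0 lower (median 0.36, 2.4% and 2.53%), and any difference gave 13 (11.4%). Bst2, the antiviral tether, was at 0.57 in the libraries with a G3 mTerc-/-Puma-/- label against G3 mTerc-/-Puma+/+ (SE 0.113, edgeR adjusted p = 0.0887), and Ifit3b was at -1.41 in G3 mTerc-/-Puma+/+ against Puma-/- (SE 0.371, edgeR adjusted p = 0.0845). The first and second comparison share the libraries with a G3 mTerc-/-Puma-/- label, and the first and the third share G3 mTerc-/-Puma+/+. The plasmacytoid dendritic cell marker sums given beside Zbp1 have the same order of genotypes, and their part was not tested. Sex, read from Ddx3y and Xist beside Ddx58, is also unbalanced between the groups of the first, the second and the third comparison.

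Members differed in how closely they followed these 27 genes across the 14 libraries. Depth and cell composition differ between these libraries, and their part in the correlations was not tested. The Pearson correlation with their mean log2 CPM was 0.934 for Zbp1, 0.691 for Ddx58, 0.612 for Adar and 0.61 for Ifih1 (Spearman rho 0.916, 0.705, 0.609 and 0.754). It was 0.247 for Aim2, 0.147 for Mavs, 0.0521 for Tmem173, -0.0322 for Tbk1 and -0.16 for Irf3. Left without the 2 libraries farthest from the median, replicate 2 of G3 mTerc-/-Puma+/+ and replicate 2 of Puma-/-, the correlation was 0.903 for Zbp1 and 0.826 for Ifih1, and it was 0.438 for Ddx58 and 0.386 for Adar, whose relation rests largely on those libraries. It was then 0.419 for Tmem173, close to Ddx58, with 0.104 for Tbk1, 0.0182 for Aim2, -0.0226 for Mavs and -0.32 for Irf3. Each genotype has too few libraries for a value of its own. Within genotypes the order was mixed. Replicate 2 of Puma-/- and replicate 1 of G3 mTerc-/-Puma+/+ were highest of their genotypes in both Zbp1 and the 27 genes (4.13 and 3.77 mean log2 CPM), whereas replicate 4 of the libraries with a G3 mTerc-/-Puma-/- label was highest of its 3 in the 27 genes (4.04) and lowest in Zbp1, Ddx58 and Ifih1. Replicate 3 of WT was likewise highest of its genotype in the 27 genes (3.58) and lowest in Zbp1 and Ddx58.

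**Figure D4:**
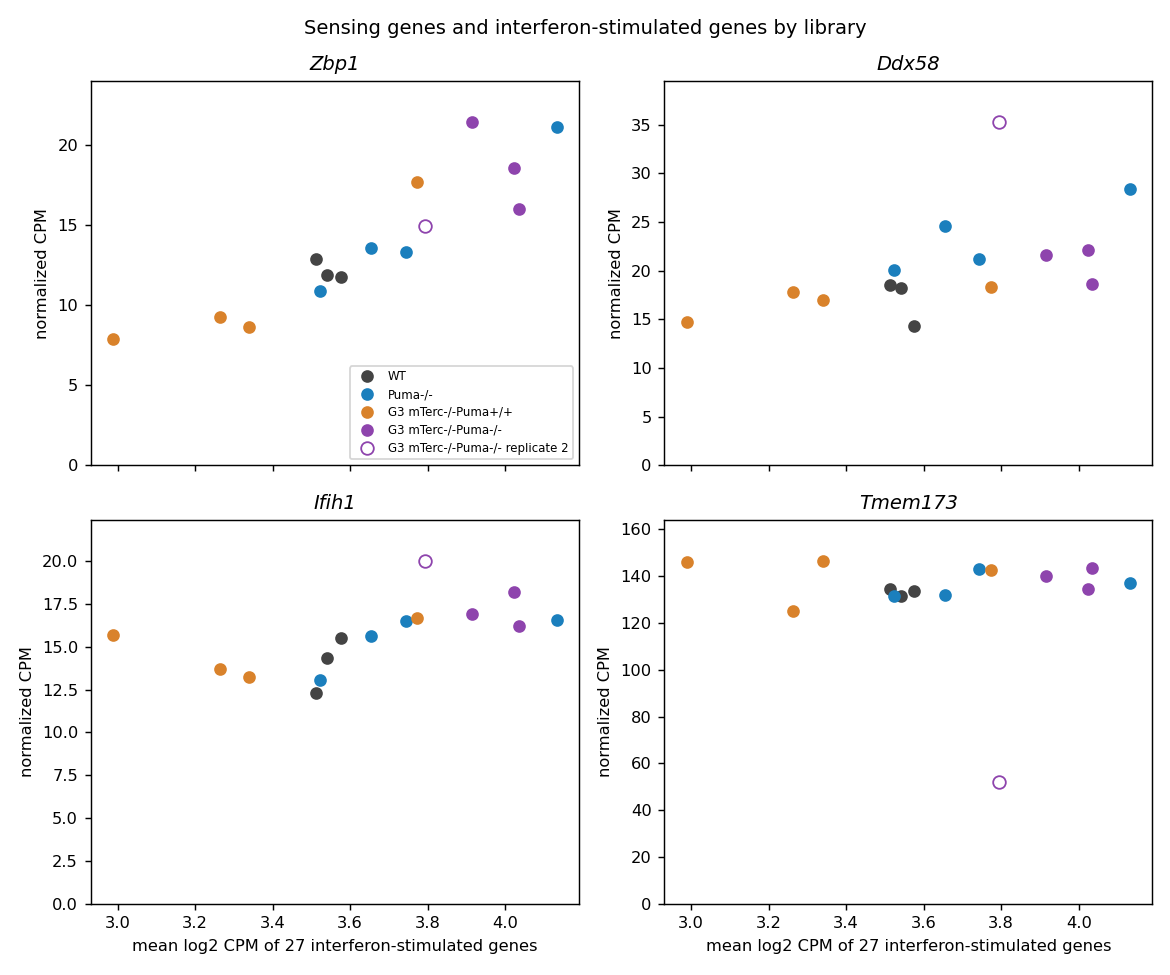
Normalized CPM of Zbp1, Ddx58, Ifih1 and Tmem173 in 15 libraries against the mean log2 CPM of 27 interferon-stimulated genes, coloured by genotype. Zbp1 climbs from 7.90 CPM at the lowest mean to between 16.0 and 21.4 CPM at the 4 highest means (r = 0.934 over 14 libraries), while Tmem173 stays between 125 and 147 CPM except in replicate 2 of the libraries with a G3 mTerc-/-Puma-/- label (open circle, 52.0 CPM).

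Members also differed in their spread over libraries. The coefficient of variation over 14 libraries was 4.69% for Tmem173, 5.02% for Tbk1, 5.43% for Aim2, 5.63% for Irf3 and 6.80% for Mavs, below the lower quartile of 7.68% over 9142 tested genes with a mean of at least 10 CPM. Ifih1 at 11.3% and Adar at 12.3% lay between the median of 10.1% and the upper quartile of 13.6%. Ddx58 at 19.1% and Zbp1 at 31.8% lay above it. For Zbp1 the genotype means spanned 0.85 on the log2 scale with a within-genotype SD of 0.378, for Ddx58 0.47 with 0.183, for Ifih1 0.29 with 0.149, and for Aim2 0.03 with 0.0886.

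Between members, the highest correlations over 14 libraries were 0.693 for Zbp1 with Adar, 0.68 for Zbp1 with Ddx58 and 0.649 for Zbp1 with Ifih1. Among 12956 tested genes with a mean of at least 1 CPM, the patterns closest to Zbp1 were those of Xaf1 (r = 0.940), Cd6 (0.939) and Oasl2 (0.929), of which Xaf1 is on the list of 27 and Oasl2 on that of 47. Closest to Adar were Lrrk1 (0.965), Trim14 (0.946) and Stat2 (0.944), the last being the interferon signalling factor. Ddx58 was closest to Uba7 (0.915), the activating enzyme of ISG15, to Il17re (0.915) and to Arhgef12 (0.915), and Ifih1 to Susd2 (0.869), Eif2ak2 (0.857), which encodes the RNA-activated kinase PKR, and Myof (0.854). The steady members had other neighbours, namely Rab3il1, Ighv1-34 and Cttnbp2nl for Tmem173 (0.694 to 0.723), Trps1, Nf1 and Mfsd6 for Tbk1 (0.804 to 0.875), Mus81, Mlycd and Hdhd3 for Irf3 (0.881 to 0.885), Herc4, Primpol and Csnk1g3 for Aim2 (0.832 to 0.859) and Wdcp, Fam53c and Atf7 for Mavs (0.880 to 0.928). Such maxima over many genes are descriptions.

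**Figure D5:**
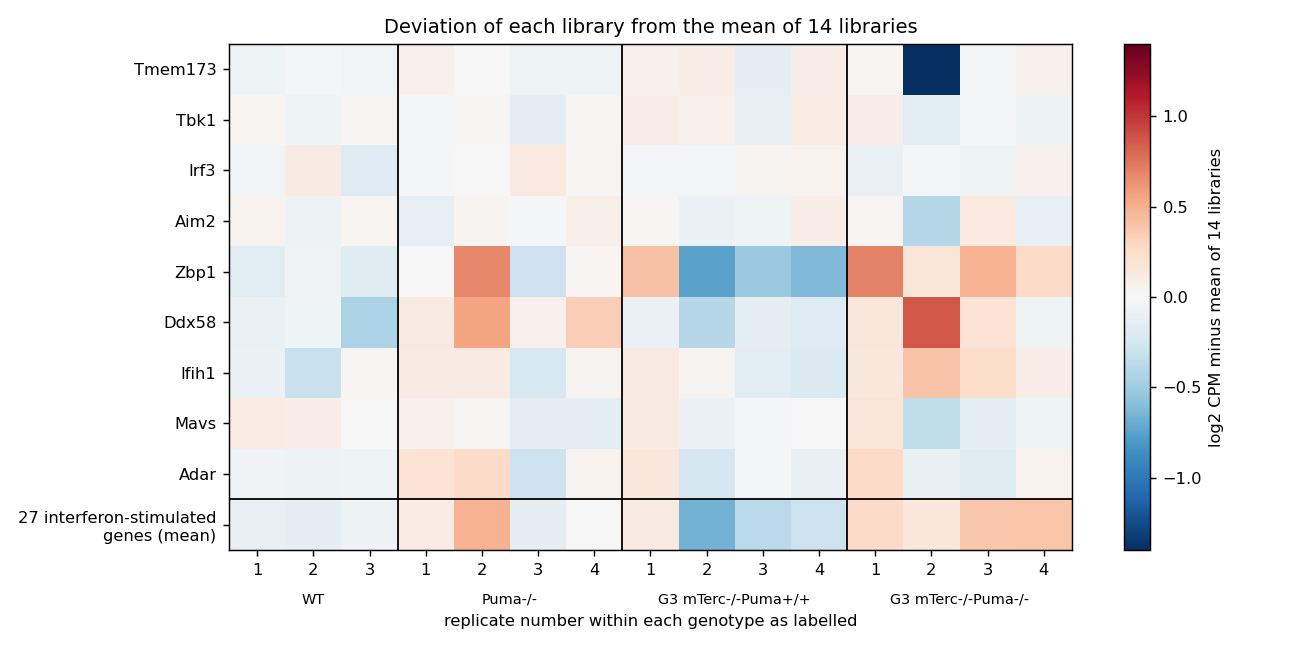
Log2 CPM of 9 sensing genes and the mean of 27 interferon-stimulated genes in 15 libraries, each as the difference from the mean of 14 libraries (red above, blue below). Zbp1 is high where the bottom row is high in most libraries, the STING arm and Aim2 are near 0 in 14 libraries, and replicate 2 of the libraries with a G3 mTerc-/-Puma-/- label is at the blue end for Tmem173.

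Replicate 2 of the libraries with a G3 mTerc-/-Puma-/- label, kept out of the values above, had its own pattern of sensing genes. Tmem173 stood at 52.0 CPM, below the 125 to 147 CPM of the other 14 libraries, and Tbk1 (50.5 CPM), Aim2 (41.0 CPM), Mavs (27.8 CPM) and Cgas (23.7 CPM) were also below all of them. Ddx58 at 35.3 CPM and Ifih1 at 20.01 CPM were above all of them, and Irf3, Zbp1 and Adar were within their range. Relative to the median of the 14, the log2 difference was -1.38 for Tmem173 and 0.92 for Ddx58. The monocyte marker sum of this library was also the lowest and its erythroid marker sum the highest of the 15, and their part in these values was not tested.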

How the data were processed

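RNA of lin- bone marrow cells was sequenced from poly(A)-selected stranded libraries. The authors trimmed reads with Trimmomatic 0.38 and deposited raw counts per gene from STAR 2.5.2b on mm10, per the submitters' processing notes and the study's methods. The annotation release and the strand setting are not given in the sources used here. Symbols, exon lengths and overlaps came from GENCODE vM21 (45143 of 45706 identifiers matched), and promoters from RefSeq (GRCm38.p6).

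Tests were run in edgeR 4.0.16 (R 4.3.3): TMM, filterByExpr (18983 genes), 1 quasi-likelihood fit of 4 genotypes in 14 libraries, and Benjamini-Hochberg adjustment over all tested genes with a threshold of 0.05. Log2 CPM used a prior count of 2. Intervals are 95% from the fit. For a single member, an exact two-sided permutation test compared mean log2 CPM. limma-voom (limma 3.58.1), DESeq2 1.42.0, all 15 libraries, other scalings and filters, a replicate block, the compared groups alone, an Xist covariate and leaving out each library were alternatives, of which limma-voom and DESeq2 with 15 libraries were added after seeing the data. Scripts were tested on simulated data.

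The members and lists were chosen with earlier results of these data known. Fold changes are printed for a member where its unadjusted p was under 0.05, and from the 2 gene lists some of the genes of smallest p are named. The intervals include the spread between libraries, and the limits for 0 counts cover counting error only.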

Additional observations from a re-analysis of the deposited data

Results flagged for a closer look

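In each group of 4 libraries, the level of every measured member was examined for a library far from the rest (27 groups of values, of which chance marks about 1 in 20). Tmem173 in replicate 2 of the libraries with a G3 mTerc-/-Puma-/- label was the lowest of its group at 52.0 CPM, and its gap to the nearest library was 0.903 of the group's range. Zbp1 in replicate 1 of G3 mTerc-/-Puma+/+ was the highest of its group at 17.7 CPM, with a gap of 0.861 of the range.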

How the results depend on the processing

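The count of members called was 0 under every alternative in every comparison except 3. DESeq2 called 1 member (Ddx58) for G3 mTerc-/-Puma+/+ against Puma-/- and 1 (Ddx58, adjusted p = 0.0209) for any difference among the 4 genotypes, and it called none of them with all 15 libraries. Leaving out 1 library gave 0 to 1 members called for the libraries with a G3 mTerc-/-Puma-/- label against G3 mTerc-/-Puma+/+, the 1 being Zbp1 without G3 mTerc-/-Puma+/+ replicate 1, and 0 elsewhere. The 5 log2 fold changes printed kept their direction under all alternatives, and leaving out 1 library moved them from 0.36 to 0.54 (Ddx58, Puma-/- against WT), -0.54 to -0.38 (Ddx58, G3 mTerc-/-Puma+/+ against Puma-/-), 0.22 to 0.37 (Ddx58, libraries with a G3 mTerc-/-Puma-/- label against G3 mTerc-/-Puma+/+), 0.65 to 1.13 (Zbp1) and 0.20 to 0.36 (Ifih1). The replicate block changed no call, with Ddx58 at -0.47 for G3 mTerc-/-Puma+/+ against Puma-/- (adjusted p = 0.151). DESeq2 called more genes in all than edgeR, 137 against 15 (Puma-/- against WT), 46 against 7 (G3 mTerc-/-Puma+/+ against WT), 1004 against 152 (G3 mTerc-/-Puma+/+ against Puma-/-) and 836 against 85 (any difference), and for the libraries with a G3 mTerc-/-Puma-/- label 89 against 12 (WT), 287 against 58 (Puma-/-) and 172 against 14 (G3 mTerc-/-Puma+/+). With all 15 libraries, edgeR called 24 genes for G3 mTerc-/-Puma+/+ against Puma-/-, and with Xist as a covariate 18. Deviations of same-numbered libraries correlated at -0.253 to 0.175 (median 0.0203, 18 pairs, 3 above 0.1). Those of other-numbered libraries correlated at -0.246 to 0.254 (median -0.0167, 55 pairs, 13 above 0.1). No sign of pairing by number was seen, but groups this small cannot exclude shared batches. Over all genes, the block changed the calls for G3 mTerc-/-Puma+/+ against Puma-/- from 152 to 43. It changed those for the libraries with a G3 mTerc-/-Puma-/- label against Puma-/- from 58 to 21 and for any difference from 85 to 40. With 3 or 4 libraries a group, the 95% intervals of Zbp1 were the widest of the members, reaching from -0.97 to 1.35 over the 6 pairs.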
